A study of Mus musculus with 6 samples.

Results

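The Smad family and its Ski co-repressors were followed in RNA of whole mouse kidneys, as 10 genes out of the 55401 gene IDs in the count table. The genes were Smad1 to Smad7, Smad9, Ski and Skil, chosen by name and matched through the symbol of each Ensembl ID. Each matched a single ID, and all 10 passed the filter on low counts. Poly(A) RNA was sequenced from 3 kidneys labelled DKD, for diabetic kidney disease, and from 3 control kidneys. The labels enter DKD or Control as the genotype. The labels do not state the strain, the age or the way in which diabetes arose. The title of the series names Smad3, the methyltransferase SETDB2 and podocytes, and the stated subject of the sequencing is histone methyltransferases. Since the labels give only replicate numbers and name no animals, p-values measure the scatter of 6 libraries, and part of that scatter may be technical.

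Smads carry the signal of TGF-beta, activin and BMP ligands from the cell surface to the nucleus. Smad2 and Smad3 are phosphorylated by TGF-beta and activin receptors, and Smad1, Smad5 and Smad9 by BMP receptors. Both kinds bind the shared partner Smad4 and act on chromatin together. Smad6 and Smad7 are inhibitory Smads that are themselves induced by the signal, Smad6 acting mainly on the BMP branch and Smad7 on both. Ski and Skil (SnoN) bind Smads in the nucleus and bring histone deacetylase complexes to their targets. In the kidney, Smad3 is known as the main transcriptional mediator of TGF-beta-driven matrix production, and the BMP branch is often described as opposing it.

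Totals ran from 71588579 to 77417638 counts in DKD and from 64816622 to 72845799 in control libraries. Values are CPM, the count of a gene scaled to the size of its library after TMM factors. Summed podocyte markers were at 371 to 471 CPM in DKD and 282 to 357 CPM in control kidneys, with all 10 markers counted in every library. For 9 of these 10 the lowest DKD value exceeded the highest control value, and 0 were lower without overlap. Among all genes tested these shares were 13.8% and 11.5%. The part of podocytes in the differences of the members was not tested. Proximal tubule markers summed to 7366 to 10081 CPM in DKD and 11312 to 12036 CPM in control kidneys, so the tissue label of kidney held in all 6 libraries. Of these 8 markers, 3 were lower in DKD without overlap and 0 higher. DKD replicate 1 stood apart. The 10 hepatocyte markers, of which Ahsg, Fgb and Cps1 were at 0 in at least 1 library, summed to 4026 CPM in it, against 330 and 413 CPM in the other DKD kidneys and 212 to 323 CPM in the controls, with Alb alone at 2321 CPM. Fitted differences without that library are also given for Smad1, Smad3, Smad6, Smad7, Ski and Skil. In whole tissue, fewer cells of a type and less RNA per cell cannot be told apart.

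No member passed an adjusted p of 0.05 with the quasi-likelihood test of edgeR over all 19197 genes tested, and neither did any other gene (0.0% called). At an unadjusted p under 0.05 there was 1 member of 10, Smad6, against 19.2% of all genes tested. The CPM of 5 members, Smad1, Smad3, Smad6, Smad9 and Ski, were all above the highest control in each of the DKD kidneys, and no member was lower in this way. Of all genes tested, 13.8% were higher in this way and 11.5% lower. With RLE in place of TMM factors the count fell to 3, Smad1, Smad6 and Smad9, since the groups of Smad3 and Ski then overlapped. The median log2 difference of the members was 0.13, beside 0.02 for all genes tested. By the fitted log2 difference 7 members were higher and 3 lower in DKD, where 52.4% of all genes tested were higher. With library size alone as the scaling, which moved the median of all genes to 0.17, the count of higher members was 9.

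**Figure D1:**
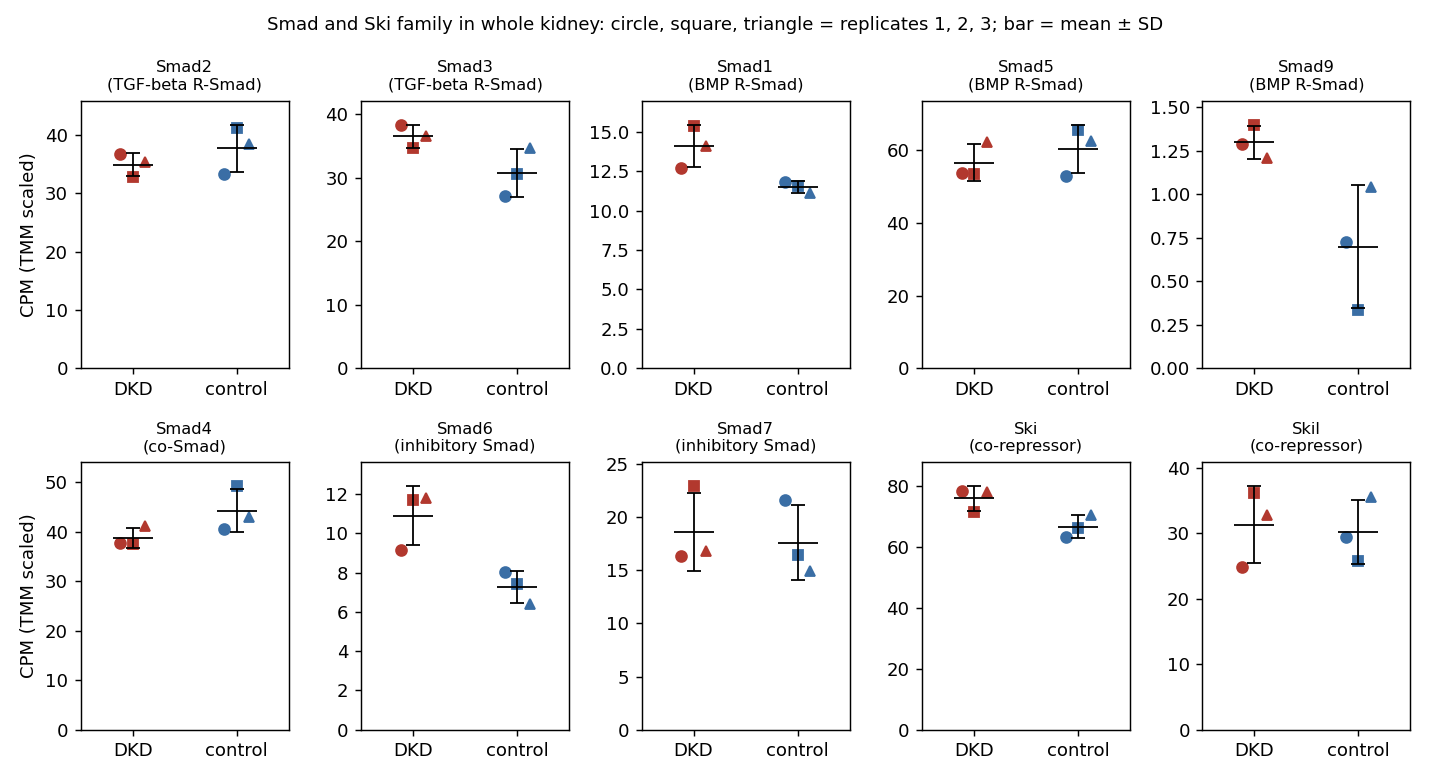
CPM of each member in the DKD kidneys (left) and the control kidneys (right) of each panel, with replicates 1 to 3 as circle, square and triangle, and the mean ± SD as a bar; each axis starts at 0. Smad6 lies at 9.13 to 11.8 CPM in DKD and 6.39 to 8.03 CPM in control kidneys, whereas the groups of Smad7 and Skil overlap.

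The promoters of these 5 members are shown because the title of the series concerns silencing of Smad3 on chromatin and because, with TMM factors, they were the ones higher in each DKD kidney. Each is the 250 bases before the start site in RefSeq, on GRCm38.p6 and in the direction of the gene, which is another build than the GRCm39 of the counts. The bases just after the start site were looked for in GENCODE M21 transcript sequence of the same gene. They were found for the other members shown but not for Smad1, so its start site is less certain. Capitals mark the Smad box GTCT or its reverse complement AGAC.
Smad3 (chr9:63757995-63758244, minus strand): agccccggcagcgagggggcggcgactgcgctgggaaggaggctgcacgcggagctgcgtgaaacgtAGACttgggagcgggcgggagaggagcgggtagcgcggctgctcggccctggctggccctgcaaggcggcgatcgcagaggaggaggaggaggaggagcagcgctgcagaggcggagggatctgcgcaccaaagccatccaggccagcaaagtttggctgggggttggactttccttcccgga
Smad6 (chr9:64022060-64022309, minus strand): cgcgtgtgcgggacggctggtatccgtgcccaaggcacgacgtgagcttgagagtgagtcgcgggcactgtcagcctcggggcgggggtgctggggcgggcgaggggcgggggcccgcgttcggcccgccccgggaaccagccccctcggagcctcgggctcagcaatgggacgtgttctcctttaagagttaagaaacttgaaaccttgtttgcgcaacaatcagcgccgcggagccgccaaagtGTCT
Smad1 (chr8:79399429-79399678, minus strand): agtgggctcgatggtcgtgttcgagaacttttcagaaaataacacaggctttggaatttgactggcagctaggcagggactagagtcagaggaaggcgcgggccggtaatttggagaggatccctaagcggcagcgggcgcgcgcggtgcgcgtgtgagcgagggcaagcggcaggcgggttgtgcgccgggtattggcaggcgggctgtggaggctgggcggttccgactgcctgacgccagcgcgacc
Smad9 (chr3:54755332-54755581, plus strand): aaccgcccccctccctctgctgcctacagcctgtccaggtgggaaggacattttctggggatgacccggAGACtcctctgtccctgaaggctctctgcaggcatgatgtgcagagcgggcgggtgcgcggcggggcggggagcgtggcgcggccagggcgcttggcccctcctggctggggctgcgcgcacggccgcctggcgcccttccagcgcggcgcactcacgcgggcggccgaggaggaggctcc
Ski (chr4:155222536-155222785, minus strand): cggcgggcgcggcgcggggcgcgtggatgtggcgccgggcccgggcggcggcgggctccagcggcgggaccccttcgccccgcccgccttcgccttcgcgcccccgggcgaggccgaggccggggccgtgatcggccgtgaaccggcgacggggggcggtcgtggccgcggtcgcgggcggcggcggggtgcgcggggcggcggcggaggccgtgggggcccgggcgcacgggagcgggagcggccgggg
RefSeq promoters of 6 of the 10 members were examined. Those of Smad2, Smad4, Smad7 and Skil were left out, so nothing is said here about their promoters. Smad5 had 3 start sites, which gives 8 windows in all. The first 2 windows of Smad5 overlap and hold the same Smad box. All 8 were rich in G and C, from 60.0% to 87.6%, where the median of 32817 promoter windows was 52.4%. CpG dinucleotides occurred at 0.72 to 1.15 times the number expected from the base composition, beside a median of 0.37. The Smad box occurred in 1 place in Smad3, Smad6 and Smad9, in 1, 1 and 2 places in the 3 windows of Smad5 and in none in Smad1 and Ski, and 82.9% of all promoters hold it. The palindrome GTCTAGAC (0.168% of all promoters) and the core of the CAGA box, CAGACA or TGTCTG (17.1%), were in none of the 8 windows. Both contain the Smad box. The GC-rich site GGCGCC, found in 9.59% of all promoters, was present once in Smad9, Ski and one window of Smad5. These matches describe the letters of the windows and show no binding.

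Smad3 and Smad2 are the receptor-activated Smads of the TGF-beta branch, and neither passed the threshold. Smad3 had CPM values of 38.3, 34.6 and 36.5 in DKD kidneys, against 27.1, 30.5 and 34.6 in control kidneys. The groups did not overlap, but by a margin of only 0.046 CPM, between DKD replicate 2 and control replicate 3, and they overlapped with RLE factors. On the log2 scale the fit gave 0.25 ± 0.11 (log2, SE; 95% interval -0.02 to 0.51; edgeR adjusted p = 0.280), or 1.19-fold. Without DKD replicate 1 it was 0.20 ± 0.12 (edgeR adjusted p = 0.316), and over the 6 libraries left out in turn it ran from 0.16 without control replicate 1 to 0.34 without control replicate 3. Smad2 had 36.7, 32.8 and 35.3 CPM in DKD kidneys, against 33.3, 41.2 and 38.5 CPM in control kidneys. All of the DKD values lay within the range of the controls but for DKD replicate 2, just under it. The fitted difference of Smad2 was -0.11 ± 0.11 (log2, SE; 95% interval -0.36 to 0.14; edgeR adjusted p = 0.599), and it was 0.04 with library size alone and -0.19 to -0.04 with each library left out.

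The balance of Smad3 and Smad2 can be read inside each library, where scaling cancels. The log2 ratio of Smad3 to Smad2 counts was 0.06, 0.08 and 0.05 in DKD kidneys, against -0.30, -0.44 and -0.15 in control kidneys. Smad3 thus had slightly more counts than Smad2 in each DKD library and fewer in each control library. These counts are not corrected for exon length, 5.542 kb for Smad3 and 8.781 kb for Smad2. Per kilobase of exon, Smad3 lay above Smad2 in every DKD and every control library, so only the shift between the groups can be read. The mean was 0.06 ± 0.01 in DKD and -0.30 ± 0.14 in control kidneys (SD, n = 3 each), a difference of 0.36. Leaving out each library in turn gave 0.29 to 0.43. The ratio of Smad3 to Smad4 was -0.09 ± 0.10 in DKD and -0.53 ± 0.20 in control kidneys, again with no overlap, and the difference of 0.44 ranged from 0.36 to 0.55. These ratios combine members that were chosen together and are given with no test.

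**Figure D2:**
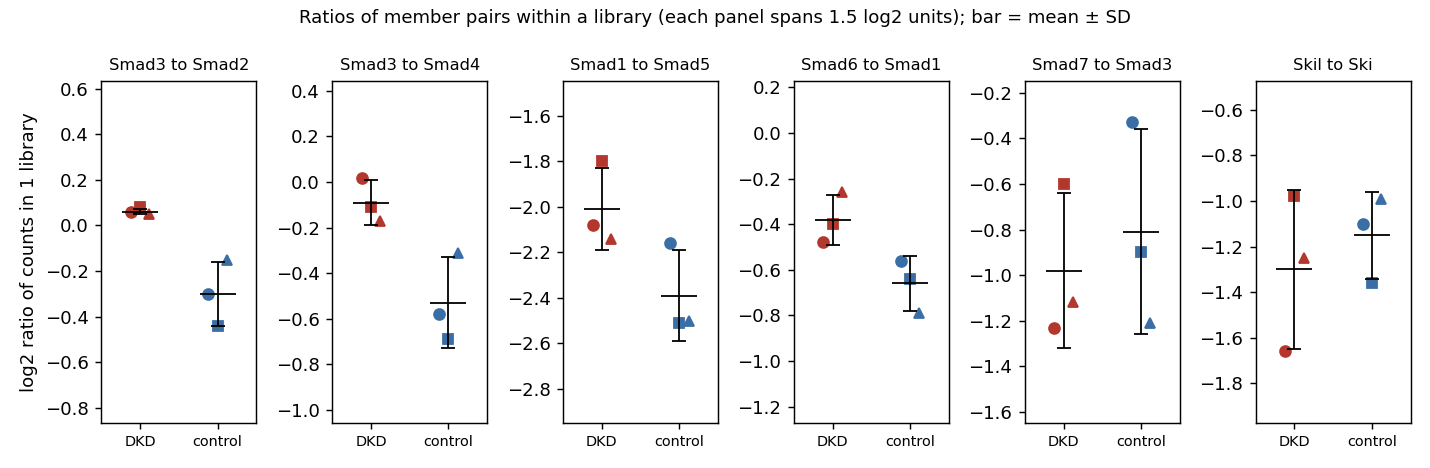
Log2 ratio of the counts of 2 members in the same library for 6 pairs, DKD left and control right, with replicates 1 to 3 as circle, square and triangle and mean ± SD as bars; each panel spans the same height. Smad3 to Smad2 sits at 0.05 to 0.08 in the DKD kidneys, above the -0.44 to -0.15 of the controls, while Skil to Ski overlaps.

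Smad1, Smad5 and Smad9 are the receptor-activated Smads of the BMP branch. None of them passed the threshold, and differences between them were not tested. Smad1 had 12.7, 15.4 and 14.1 CPM in DKD kidneys, against 11.8, 11.6 and 11.1 CPM in control kidneys. Every DKD value was above the controls, whose own spread was narrow at an SD of 0.369 CPM. The fitted difference was 0.29 ± 0.13 (log2, SE; 95% interval -0.01 to 0.59; edgeR adjusted p = 0.265), and 0.35 ± 0.13 without DKD replicate 1 (edgeR adjusted p = 0.115). Limma-voom with sample quality weights called it higher at 0.37 (adjusted p = 0.0481), in a fit that called 9.94% of all genes higher. That fit gave low weights to DKD replicate 1 (0.302) and to control replicate 1 (0.502), and 1.18 to 2.07 to the other libraries. Smad5, the most abundant of the branch, had 53.7, 53.5 and 62.4 CPM in DKD kidneys, against 52.9, 65.7 and 62.5 CPM in control kidneys. Its groups overlapped, with a fitted difference of -0.09 ± 0.12 (log2, SE; 95% interval -0.37 to 0.18; edgeR adjusted p = 0.681) that was 0.06 with library size alone and -0.18 to -0.03 with each library left out. The log2 ratio of Smad1 to Smad5 was -2.08, -1.80 and -2.14 in DKD kidneys, against -2.16, -2.51 and -2.50 in control kidneys. DKD replicate 3 and control replicate 1 nearly touched, and the means, -2.01 ± 0.18 in DKD and -2.39 ± 0.20 in control kidneys (SD, n = 3 each), differed by 0.38.

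Smad9 was the least expressed member, with 98, 108 and 103 counts in DKD and 43, 22 and 74 counts in control libraries. In CPM it stood at 1.29, 1.40 and 1.21 in DKD kidneys, against 0.724, 0.333 and 1.04 in control kidneys. The DKD kidneys were close together and the controls were not. Exact Poisson intervals (95%, counting error only) were 0.991 to 1.47 CPM in DKD replicate 3 and 0.820 to 1.31 CPM in control replicate 3, so these neighbouring libraries could not be separated by depth. The fitted difference was 0.89 ± 0.44 (log2, SE; 95% interval -0.15 to 1.93; edgeR adjusted p = 0.314). It was the largest among the members and the least certain, and it ran from 0.55 without control replicate 2 to 1.30 without control replicate 3. Neither fit passed the threshold.

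Smad4, the partner of both branches, had 37.7, 37.5 and 41.1 CPM in DKD kidneys, against 40.6, 49.2 and 43.0 CPM in control kidneys. DKD replicate 3 lay just above control replicate 1, and the other DKD values lay under all controls. Its fitted difference was -0.19 ± 0.10 (log2, SE; 95% interval -0.43 to 0.05; edgeR adjusted p = 0.339), and it stayed below 0 in all 17 alternative fits, at -0.25 to -0.04. None of those fits called it, with adjusted p from 0.117 to 0.887.

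Smad6, the inhibitory Smad of the BMP branch, had the smallest p of the family. It had 9.13, 11.7 and 11.8 CPM in DKD kidneys, against 8.03, 7.41 and 6.39 CPM in control kidneys. DKD replicate 1 was the lowest of the DKD kidneys and still 1.1 CPM above the highest control. The fitted difference was 0.58 ± 0.17 (log2, SE; 95% interval 0.18 to 0.98; edgeR adjusted p = 0.158), or 1.49-fold, and ranked 1373 among 19197 genes by p. Without DKD replicate 1 Smad6 passed the threshold at 0.68 ± 0.16 (edgeR adjusted p = 0.0344), in a fit that called 9.67% of all genes higher. DESeq2 also called it (0.57, adjusted p = 0.0364), as did weighted limma-voom (0.70, adjusted p = 0.0183), where 6.22% and 9.94% of all genes were called higher. Over the other alternatives the adjusted p went up to 0.433. For Smad6 to Smad1, both higher in DKD, the log2 ratio was -0.38 ± 0.11 in DKD and -0.66 ± 0.12 in control kidneys (SD, n = 3 each), with no overlap.

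Smad7, the inhibitory Smad shared by both branches and a direct TGF-beta target, had 16.3, 22.9 and 16.8 CPM in DKD kidneys, against 21.6, 16.4 and 14.9 CPM in control kidneys. Each group held 1 high library, DKD replicate 2 and control replicate 1, and the groups overlapped. The fitted difference was 0.08 ± 0.19 (log2, SE; 95% interval -0.38 to 0.54; edgeR adjusted p = 0.846), and its sign turned without DKD replicate 2 (-0.09) and without control replicate 3 (-0.03). Without DKD replicate 1 it was 0.16 ± 0.20 (edgeR adjusted p = 0.651). The interval on all 6 libraries holds both no difference and most of the size seen for Smad6, and the difference between Smad6 and Smad7 was not tested. The log2 ratio of Smad7 to Smad3 was -0.98 ± 0.34 in DKD and -0.81 ± 0.45 in control kidneys (SD, n = 3 each) and overlapped.

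Ski and Skil are the co-repressors, and neither passed the threshold. Ski had 78.4, 71.3 and 78.0 CPM in DKD kidneys, against 63.1, 66.2 and 70.6 CPM in control kidneys, with 0.68 CPM between the nearest libraries and an overlap with RLE factors. Its fitted difference was 0.19 ± 0.09 (log2, SE; 95% interval -0.02 to 0.40; edgeR adjusted p = 0.296), and it was 0.16 ± 0.10 without DKD replicate 1. Skil, itself a target of TGF-beta signalling, had 24.8, 36.2 and 32.8 CPM in DKD kidneys, against 29.5, 25.7 and 35.5 CPM in control kidneys. DKD replicate 1 was the lowest of all 6 libraries and DKD replicate 2 the highest. The fitted difference of Skil was 0.05 ± 0.17 (log2, SE; 95% interval -0.36 to 0.46; edgeR adjusted p = 0.903), with a sign that turned without DKD replicate 2 (-0.07) and without control replicate 2 (-0.06). Without DKD replicate 1 it was 0.18 ± 0.15 (edgeR adjusted p = 0.457). The log2 ratio of Skil to Ski was -1.66, -0.98 and -1.25 in DKD kidneys, against -1.10, -1.36 and -0.99 in control kidneys, and the groups overlapped. The means differed by -0.15, and by 0.04 without DKD replicate 1.

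**Figure D3:**
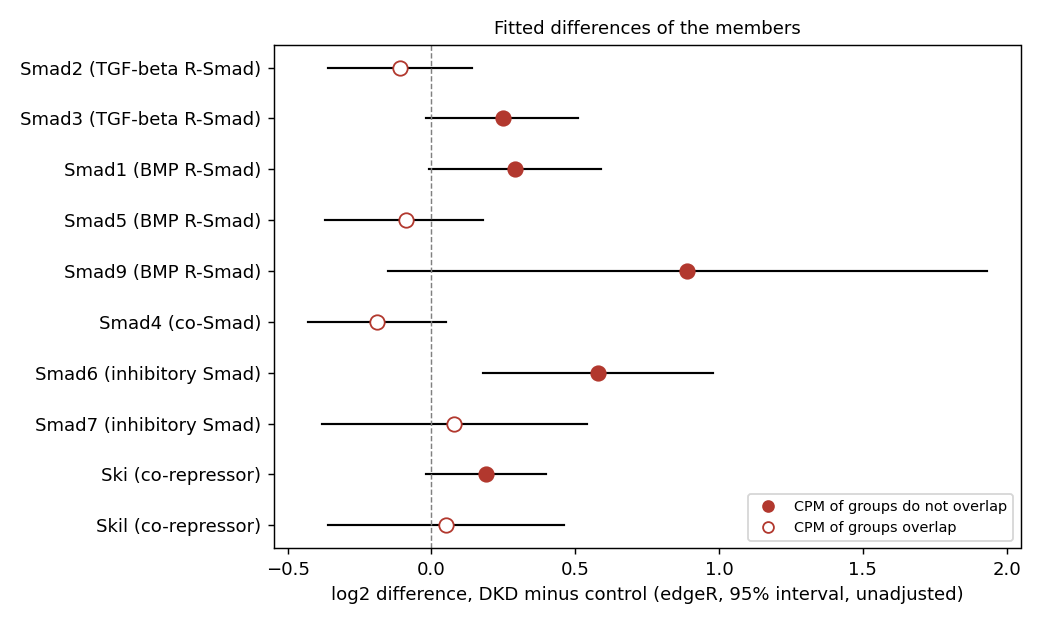
Fitted log2 difference of each member, DKD minus control, from edgeR on all 6 libraries, with its 95% interval not adjusted for the number of genes; filled points are members whose CPM do not overlap between the groups, of which Smad3 and Ski overlap with RLE factors. The interval of Smad6 alone, 0.18 to 0.98, lies above 0.

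The levels of the members were compared per kilobase of exon, with exon lengths of GENCODE M21 on GRCm38. Ski led in DKD kidneys at 13.6 ± 0.72 CPM per kilobase and in control kidneys at 12.0 ± 0.676 (SD, n = 3 each), and it stood at the 81.9th percentile of the tested genes that had a length. Smad4 came next at 10.4 ± 0.546 CPM per kilobase in DKD and 11.9 ± 1.19 in control kidneys. The ranges of Ski and Smad4 were apart in DKD and overlapped in control kidneys. Smad5 (7.62 in DKD, 8.13 in control) and Smad3 (6.58 in DKD, 5.54 in control) followed, each apart from its neighbours. Below them, Smad7 (4.12 in DKD, 3.90 in control) and Smad2 (3.98 in DKD, 4.29 in control) could not be ordered in either group. Skil had 3.22 CPM per kilobase in DKD and 3.12 in control kidneys, and its range overlapped that of Smad7 in both groups. Smad6 reached that level in DKD (3.39, ranges overlapping) and lay under it in control kidneys (2.27, ranges apart). Smad1 (2.25 in DKD, 1.83 in control) and Smad9 (0.242 in DKD, 0.130 in control) were at the low end, the last at the 12.0th percentile. The median over all tested genes with a length was 2.57 CPM per kilobase.

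Some members shared the pattern of Smad3 across the libraries more than others. The likeness was the root mean square difference of log2 CPM, centred on the mean of the 6 libraries. Ski was the nearest member at 0.0668, and the other members lay between 0.177 for Smad1 and 0.583 for Smad9. Among 9304 other genes with a mean of at least 10 CPM, the nearest was Fgfr1, a receptor for fibroblast growth factors, at 0.0260. It had 60.5, 55.1 and 55.6 CPM in DKD kidneys, against 43.5, 49.2 and 54.8 CPM in control kidneys. Msantd2 (0.0492), the kinase gene Pak6 (0.0514), the kinase gene Slk (0.0527) and the adaptor gene Sh2b3 (0.0559) came next. These genes were picked for their likeness to Smad3, so their own differences are no result.

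The genes that act around the Smads were counted in lists chosen with earlier results of these data known. None of their members passed the threshold with edgeR on all 6 libraries, as for all genes (0.0% called), so unadjusted counts are given beside the 12.2% of all genes that were higher and 7.05% that were lower at an unadjusted p under 0.05. Of 3 TGF-beta ligand genes, all with a higher fitted level (median 0.79), Tgfb1 was higher at that threshold. It had 10.2, 12.0 and 15.1 CPM in DKD kidneys, against 6.56, 6.92 and 8.05 CPM in control kidneys, and differed by 0.79 ± 0.19 (log2, SE; edgeR adjusted p = 0.123). Of 15 tested receptor and co-receptor genes 2 were higher and 1 lower, with a list median of 0.14. The BMP co-receptor gene Rgma had 3.43, 4.18 and 3.64 CPM in DKD kidneys, against 2.10, 1.86 and 2.40 CPM in control kidneys. The activin receptor gene Acvr2b had 4.50, 2.88 and 2.43 CPM in DKD kidneys, against 5.82, 5.44 and 5.12 CPM in control kidneys. Neither overlapped between groups, and their adjusted p with edgeR were 0.140 and 0.206. Without DKD replicate 1, Rgma passed the threshold as higher and Acvr2b as lower, in a fit that called 9.67% of all genes higher and 5.84% lower.

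The Smad target genes were counted by branch. Of 24 TGF-beta and activin target genes, 14 were higher and 0 lower at an unadjusted p under 0.05, and 12 had DKD values that all lay above the controls, as did 13.8% of all genes tested. The list median was 1.07, beside 0.13 for the Smad and Ski members and 0.02 for all genes tested. Col1a1, a chain of fibrillar collagen, had 23.3, 23.6 and 35.9 CPM in DKD kidneys, against 5.49, 7.88 and 9.25 CPM in control kidneys. Fn1, fibronectin, had 69.3, 32.2 and 54.7 CPM in DKD kidneys, against 9.32, 13.4 and 13.2 CPM in control kidneys. The lowest DKD value of each lay well above the highest control. Ltbp3, which binds latent TGF-beta, and the collagen gene Col3a1 were likewise apart, with differences of 1.15 and 1.83 (log2). Each of these 4 genes had an edgeR adjusted p of 0.103. Without DKD replicate 1, 15 of the 24 passed the threshold, all higher, where 9.67% of all genes were called higher. These genes answer to many other inputs, and summed stromal markers, 8 of 8 counted in every library, were at 202 to 275 CPM in DKD and 92.7 to 126 CPM in control kidneys. Of these 8 stromal markers, 6 had DKD values that all lay above the controls, and 0 were lower without overlap. That marker list shares Col1a1 and Col3a1 with the targets, and the part of stromal cells in the counts was not tested.

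For the BMP branch, of 12 tested genes 2 were higher and 0 lower at an unadjusted p under 0.05, with a median of 0.32. Smoc2, a matrix protein gene, had 10.6, 7.92 and 17.1 CPM in DKD kidneys, against 4.90, 6.03 and 7.59 CPM in control kidneys. The transcription factor gene Atoh8 had 2.94, 2.35 and 3.74 CPM in DKD kidneys, against 1.88, 1.36 and 2.20 CPM in control kidneys. Both were higher in each DKD kidney, with adjusted p of 0.180 and 0.241 in edgeR. Of the 12 genes, these 2 were higher in this way and 0 lower, beside 13.8% and 11.5% of all genes tested. Id3, a direct target of BMP-activated Smads, had 41.6, 50.0 and 35.3 CPM in DKD kidneys, against 46.6, 25.0 and 28.9 CPM in control kidneys, and overlapped. Grem1, a secreted BMP antagonist, was at 0.0, 1.36 and 7.40 CPM in DKD kidneys, against 0.337, 0.818 and 0.846 CPM in control kidneys, so that DKD replicate 1 was the lowest library and DKD replicate 3 by far the highest. Endothelial markers, given here because Smad6 is known to be expressed in endothelium, summed to 236 to 312 CPM in DKD and 216 to 250 CPM in control kidneys, with 7 of 7 counted in every library. Of these 7 markers 3 were higher in each DKD kidney, beside 13.8% of all genes tested. Their part in the difference of Smad6 was not tested.

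Among 42 tested partners and regulators of the Smads, 6 were higher and 2 lower at an unadjusted p under 0.05 in edgeR. Of all genes tested, 12.2% were higher and 7.05% lower at that threshold. By CPM without overlap between the groups, 4 of the list were higher and 6 lower in DKD, beside 13.8% and 11.5% of all genes tested. The list median was -0.04, or 0.11 with library size alone. Usp11, a deubiquitinase gene, had 8.54, 8.58 and 8.91 CPM in DKD kidneys, against 4.71, 6.29 and 5.42 CPM in control kidneys. Tgif2, a homeobox co-repressor gene, had 3.28, 3.57 and 4.58 CPM in DKD kidneys, against 0.623, 2.06 and 0.494 CPM in control kidneys. Ppm1a, a phosphatase reported to act on receptor-activated Smads, had 93.6, 86.0 and 82.5 CPM in DKD kidneys, against 116, 104 and 104 CPM in control kidneys. All 3 were apart between the groups, Ppm1a as lower in DKD, and their edgeR adjusted p ran from 0.133 to 0.171. Of 10 tested partners of the Ski co-repressors, whose list median was also -0.04 and 0.11 with library size alone, 1 was higher at an unadjusted p under 0.05. This was Dach1, a nuclear factor of the Ski and Dach family. It had 21.9, 22.6 and 17.1 CPM in DKD kidneys, against 17.1, 13.6 and 12.9 CPM in control kidneys. Ncor1, a scaffold of deacetylase complexes, had 121, 125 and 128 CPM in DKD kidneys, against 126, 158 and 151 CPM in control kidneys, and overlapped.

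**Figure D4:**
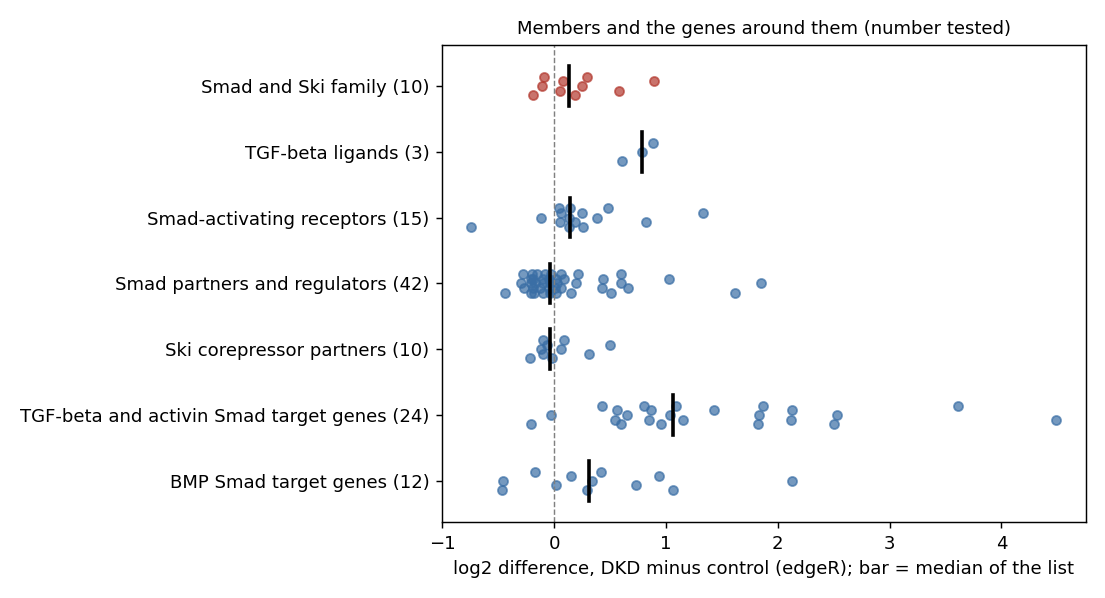
Fitted log2 difference, DKD minus control, of the 10 members and of the tested genes of 6 lists around them, 1 point a gene, with the list median as a bar. The median is 0.13 for the Smad and Ski members and 1.07 for the TGF-beta and activin targets, while partners of the Smads centre on -0.04 (0.11 with library size alone).

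Setdb2, which the title of the series sets beside Smad3, had 6.62, 9.25 and 8.15 CPM in DKD kidneys, against 8.28, 15.3 and 9.45 CPM in control kidneys. Its groups overlapped (log2 difference -0.46 ± 0.26, SE; 95% interval -1.08 to 0.16; edgeR adjusted p = 0.373), and 3 libraries a group are too few for a relation with Smad3 within a group.

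**Figure D5:**
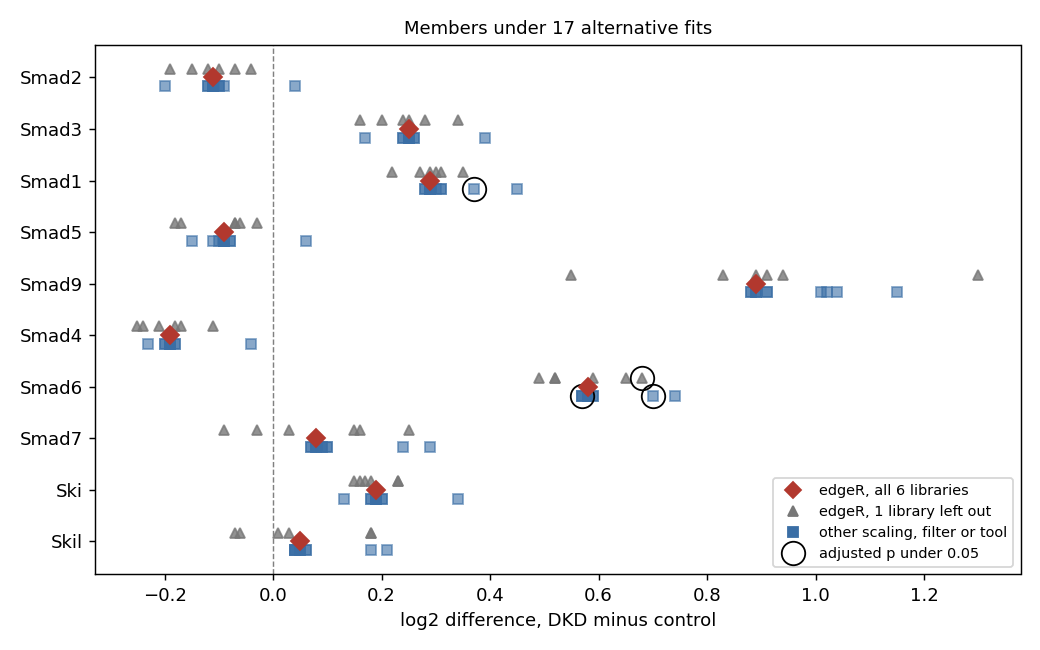
Log2 difference, DKD minus control, of each member from edgeR on all 6 libraries (diamond), with 1 library left out (triangles) and with another scaling, filter, tool or a replicate block (squares); circles mark an adjusted p under 0.05. Smad6 is circled 3 times and Smad1 once, and the points of Smad2, Smad5, Smad7 and Skil fall on both sides of 0.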

How the data were processed

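The authors deposited raw read counts per gene for 6 libraries, with no normalisation. The build was GRCm39 and the tools were edgeR, fastp, HISAT2 and StringTie, per the submitters' processing notes, which leave versions, annotation and strand setting unstated in what was used here. Symbols came from the reference table (55141 of 55401 IDs matched). Counts were tested, two-sided, in edgeR 4.0.16 under R 4.3.3 by its robust quasi-likelihood fit (TMM factors, default filter on the groups, no replicate block), with Benjamini-Hochberg adjustment over 19197 genes. Standard errors and 95% intervals come from that statistic. Log2 CPM for the likeness to Smad3 used a prior count of 2. A library without a count allows up to 0.0353 to 0.0505 CPM (3 counts, counting error only). The 17 alternatives changed the scaling, the filter, the tool (DESeq2 1.42.0, limma 3.58.1), the block or the libraries. Each of the tools was also run on simulated counts with known changes.

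The members and lists were chosen with earlier results of these data known. Named genes were all members, Setdb2, up to 4 genes of each list with the smallest p (not all printed), and the 5 genes most like Smad3. Of 17 receptor genes 16 were matched. Tgif1 stands in the list of Smad partners and in that of TGF-beta targets. No exon of another gene of GENCODE M21 with more than 2 counts in a library overlapped a member. Other marker lists (loop and distal tubule, collecting duct, macrophage, T cell, B cell) are summarised in the closing section.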

Additional observations from a re-analysis of the deposited data

How the results depend on the processing

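Smad1, Smad3, Smad4, Smad6, Smad9 and Ski kept their direction in all 17 alternative fits. Smad6 passed the threshold in DESeq2 (0.57), in weighted limma-voom (0.70) and without DKD replicate 1 (0.68), and Smad1 in weighted limma-voom (0.37). The sign turned with library size alone for Smad2 (0.04) and Smad5 (0.06). Leaving out each library in turn gave 0.49 to 0.68 for Smad6, -0.09 to 0.25 for Smad7 and -0.07 to 0.18 for Skil. The cause of these shifts was not tested. Members whose DKD values all lay above the controls numbered 3 with RLE factors, against 5 with TMM factors. Without DKD replicate 1 the number was also 5, but leaving out a DKD library cannot lower this count. Members past the threshold numbered 1 in DESeq2 and 2 in weighted limma-voom, and 0 to 1 with each library left out. Among all genes the counts were 1749, 3397, and 0 to 3101 with each library left out (3101 without DKD replicate 1), and 4 with no filter on low counts. Without control replicate 1 it was 7 genes and without DKD replicate 3 it was 1. Unweighted limma-voom called 0 genes.

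Counts past the threshold in the lists, by alternatives chosen after seeing the data, were 3 without DKD replicate 1, 5 in weighted limma-voom and 2 in DESeq2 for Smad partners. They were 15, 11 and 11 for TGF-beta and activin targets, 2, 3 and 1 for receptors and 1 in each for ligands. For BMP targets they were 1 without DKD replicate 1 and 1 in DESeq2, and for Ski partners 1 in weighted limma-voom.

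Replicate numbers were not used as pairs in the main fit. Deviations of same-numbered libraries correlated at 0.0227 to 0.0344. Differently numbered libraries were not compared, so these values cannot tell whether the libraries were paired. With the replicate block 0 genes passed the threshold and Smad6 differed by 0.57. The depth limits Smad9 most, at 22 to 108 counts a library.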

Other observations

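Marker sums of other cell types were taken beside the members. Macrophage and myeloid markers summed to 114, 170 and 219 CPM in DKD kidneys, against 108, 102 and 122 CPM in control kidneys. T cell markers summed to 4.27, 12.0 and 13.7 CPM in DKD kidneys, against 2.93, 3.50 and 3.63 CPM in control kidneys, with 2 of the 6 higher without overlap and 0 lower. B and plasma cell markers were at 1.84, 62.2 and 61.0 CPM in DKD kidneys, against 7.29, 17.1 and 8.99 CPM in control kidneys. DKD replicate 1 was the lowest DKD kidney for the macrophage, T cell and B cell markers, and also for Smad1, Smad6, Smad7 and Skil. It was the highest of all libraries for Smad3 and Ski. Loop and distal tubule markers summed to 5827 to 6593 CPM in DKD and 4682 to 5406 CPM in control kidneys. Only 1 of these 5 markers was higher without overlap, and 0 were lower. Collecting duct markers summed to 346 to 519 CPM in DKD and 360 to 423 CPM in control kidneys.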
